A study of Mus musculus with 6 samples.

Results

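The transforming growth factor β (TGF-β) and activin genes were followed in mouse livers 24 hours after a toxic injury. They were 10 genes, chosen by symbol from the 24346 genes of the deposited expression table: the ligands *Tgfb1*, *Tgfb2* and *Tgfb3*, their receptors *Tgfbr1* and *Tgfbr2*, the activin subunits *Inhba*, *Inhbb*, *Inhbc* and *Inhbe*, and the activin-binding protein *Fst*. RNA of 6 livers was sequenced, 3 from med23 f/f mice (genotype labelled wt) and 3 from med23 Δli mice (genotype labelled med23 ko). All were male C57/BL6 mice of 8 weeks that had received 0.6 μl of CCl4 per g body weight in sunflower oil, so both groups share the toxin and no liver without it was analysed here. The paper reports less necrosis in med23 Δli livers at this time, so genotype and the extent of injury cannot be told apart here. Hepatocytes turn CCl4 into a radical that damages them. *Med23* encodes a subunit of the Mediator complex, which links transcription factors to RNA polymerase II, and Albumin-cre deletes its floxed part in hepatocytes and leaves it in other liver cells. The question put to the livers is how the loss of *Med23* from hepatocytes alters gene expression after acute injury.

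TGF-β ligands are secreted in a latent form and, once released, bind the type II receptor TGFBR2, which recruits and phosphorylates the type I receptor TGFBR1. Activins are dimers of inhibin β subunits and act through activin receptors, and both routes phosphorylate SMAD2 and SMAD3, which enter the nucleus with SMAD4. The related bone morphogenetic proteins (BMPs) use other receptors and SMAD1, SMAD5 and SMAD9. In the liver, TGF-β is known as a driver of fibrosis and as a brake on hepatocyte growth. *Inhba* encodes the βA subunit, which forms activin A, whereas *Inhbc* and *Inhbe* are made mainly by hepatocytes. FST, or follistatin, captures activins outside the cell.

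Of the 10 genes, 3 passed the test between the groups: *Inhba* fell, and *Inhbc* and *Tgfb2* rose. To show the start regions of these genes, the 250 bases before each transcription start are given here from RefSeq (GRCm38.p6, the assembly of mm10), 5′ to 3′ on the strand of the gene. Capitals mark the motif matches described after them.
*Tgfb2* (chr1:186705990-186706239, minus strand): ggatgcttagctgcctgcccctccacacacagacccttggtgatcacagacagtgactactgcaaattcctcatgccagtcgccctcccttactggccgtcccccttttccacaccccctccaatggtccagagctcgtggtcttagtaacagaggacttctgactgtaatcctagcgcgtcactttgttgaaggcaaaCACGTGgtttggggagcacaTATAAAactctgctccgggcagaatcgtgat
*Inhba* (chr13:16011601-16011850, plus strand): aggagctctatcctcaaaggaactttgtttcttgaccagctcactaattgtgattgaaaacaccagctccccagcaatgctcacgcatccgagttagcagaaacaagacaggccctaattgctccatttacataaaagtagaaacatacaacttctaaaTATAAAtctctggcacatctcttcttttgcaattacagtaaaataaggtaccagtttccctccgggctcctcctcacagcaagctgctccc
*Inhbc* (chr10:127370549-127370798, minus strand): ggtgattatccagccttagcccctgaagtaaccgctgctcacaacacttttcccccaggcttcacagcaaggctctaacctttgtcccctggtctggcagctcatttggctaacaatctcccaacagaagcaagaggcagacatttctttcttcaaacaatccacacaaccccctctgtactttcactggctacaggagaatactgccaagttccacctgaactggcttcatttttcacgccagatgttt

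The windows were searched on both strands for the AP-1 site TGACTCA, the cyclic AMP element TGACGTCA, the ROR element AGGTCA, the TATA box TATAAA and the E-box CACGTG. The search for the TATA box and the E-box was added after the letters had been read. In *Tgfb2*, TATAAA lay 31 to 26 and CACGTG 51 to 46 bases before the start, and in *Inhba*, TATAAA lay 91 to 86 bases before it. The window of *Inhbc*, whose RefSeq start lies somewhat upstream of that in GENCODE, held none of these motifs. RefSeq windows were found for 8 of the 10 genes, not for *Tgfb3* and *Fst*, and the other members with a window had no match. Of 32851 promoter windows of the same length, 4.46% held TGACTCA, 1.55% TGACGTCA, 14.0% AGGTCA, 12.4% TATAAA and 6.02% CACGTG.

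In GENCODE M21, on the same assembly, *Inhba* lies at chr13:16011851-16031621 on the plus strand and *Tgfb2* at chr1:186622792-186705989 on the minus strand. *Inhbc* (chr10:127356322-127370431) and *Inhbe* (chr10:127348857-127354411) are neighbours on the minus strand, 1910 bp apart. The libraries were made with the TruSeq v2 kit, whose standard RNA form does not mark strand, and the strand setting of the counting is not given in the sources used here. Exons of an antisense transcript overlap those of *Inhbc* by 268 bases and those of *Tgfb2* by 124 bases, and without strand these reads cannot be told apart. No annotated gene shares exon bases with *Inhba*.

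Expression was given by the authors as FPKM, fragments per transcript length and library size, so genes can be set side by side on it. The test, limma, was run on log2(FPKM + 0.1) values of the 11956 genes whose mean reached 0.5 FPKM. On this scale the change of a low gene is understated. A gene passed at a Benjamini-Hochberg adjusted p under 0.05, over all genes tested. All 10 members were tested, and each had a mean above 0.5 FPKM in both groups. Read counts cannot be recovered from them, so the depth of each library is unknown and the spread between the 3 livers of a group is the error given. The libraries listed 7628 to 9341 genes at 0, and the 10 most abundant genes held 17.1% to 20.3% of the summed FPKM in med23 f/f livers and 11.9% to 13.7% in med23 Δli livers. *Med23* itself had 3.51 ± 0.589 FPKM in med23 f/f and 3.24 ± 0.286 FPKM in med23 Δli livers (SD, n = 3 each; limma adjusted p = 0.685), so its summed level over all liver cells does not tell the labelled groups apart.

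Of all genes tested, 11.6% rose and 9.48% fell in med23 Δli livers, against 2 and 1 of the 10 members. In 23.3% of all genes every med23 Δli liver was above every med23 f/f liver, and in 20.4% every one was below. Among the members these were *Tgfb2* and *Inhbc* above, and *Tgfb1* and *Inhba* below. The median log2 fold change over all genes tested was 0.02.

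**Figure D1:**
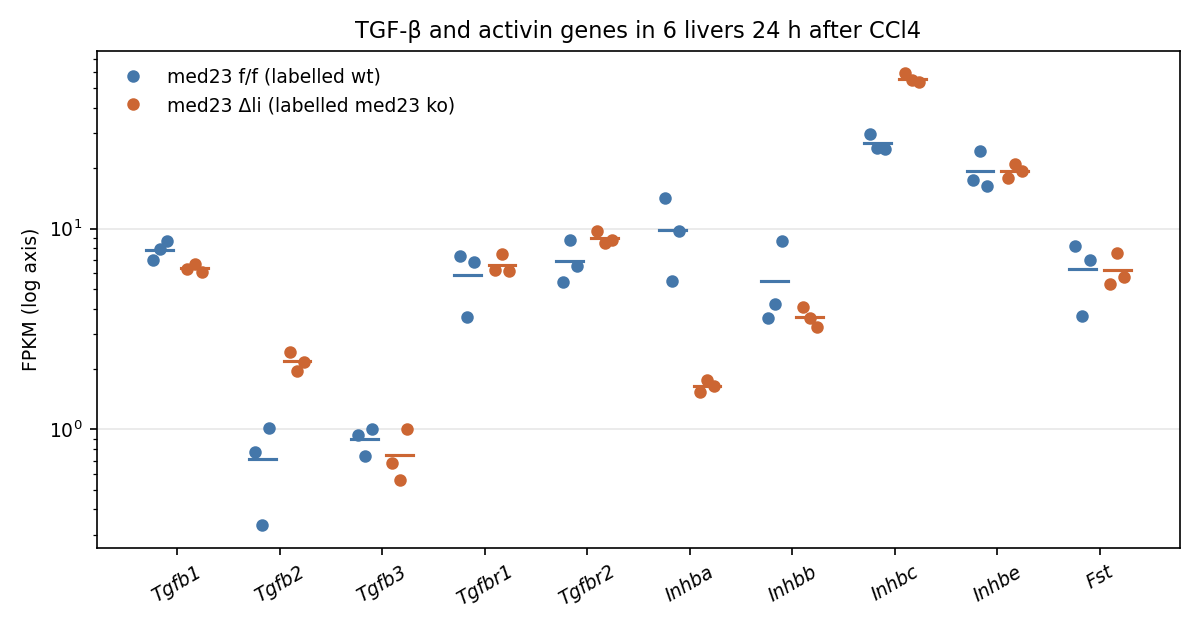
FPKM of the 10 genes (log axis) in each of the 6 livers, by group, with points for livers and lines for group means. The groups are apart without overlap in *Tgfb1*, *Tgfb2*, *Inhba* and *Inhbc*, and *Inhba* is between 1.54 and 1.76 FPKM in the 3 med23 Δli livers.

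Among the TGF-β ligands, *Tgfb1* was the most abundant and *Tgfb2* was the one that changed. *Tgfb2* had 0.773, 0.335 and 1.02 FPKM in the med23 f/f livers and 2.43, 1.95 and 2.16 FPKM in the med23 Δli livers. Every med23 Δli liver was above every control, and the means of 0.709 ± 0.347 and 2.18 ± 0.240 FPKM (SD, n = 3 each) were 3.08-fold apart. On the log2 scale the rise was 1.60 (SE 0.35, 95% interval 0.79 to 2.40, limma adjusted p = 0.0187). Without med23 Δli replicate 1, 2 or 3 the limma adjusted p was 0.0740, 0.0556 and 0.0664, with log2 fold changes between 1.20 and 1.88 over all livers left out in turn.

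*Tgfb1*, the isoform most studied in liver fibrosis, had 6.96, 7.95 and 8.65 FPKM in med23 f/f livers and 6.30, 6.64 and 6.04 FPKM in med23 Δli livers. The med23 Δli livers were all lower, but the difference did not pass the test (log2 fold change −0.30, 95% interval −0.62 to 0.01, limma adjusted p = 0.146). *Tgfb3* was near 1 FPKM or below in every liver, with 0.940, 0.737 and 1.00 FPKM against 0.678, 0.560 and 1.00 FPKM. Its groups overlapped (log2 fold change −0.25, 95% interval −0.90 to 0.39, limma adjusted p = 0.534).

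Within the summed FPKM of the 3 isoforms, *Tgfb2* made up 7.39% ± 3.21 in med23 f/f and 23.6% ± 2.25 in med23 Δli livers, a difference of 16.2 percentage points (SD, n = 3 each). *Tgfb1* made up 83.1% ± 4.33 and 68.4% ± 3.65 of it. Both shares had p = 0.1 in an exact two-sided permutation test, the smallest p that 3 livers against 3 can give, and shares of a common sum are not independent. The sum itself was 9.45 ± 1.07 FPKM and 9.26 ± 0.137 FPKM (exact permutation p = 1). The level of *Tgfb1* was 9.0, 23.8 and 8.48 times that of *Tgfb2* in the med23 f/f livers, replicate 2 being far above the others, and 2.59, 3.39 and 2.80 times in the med23 Δli livers.

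Neither receptor passed the test. *Tgfbr1* had 7.29, 3.61 and 6.79 FPKM in med23 f/f and 6.20, 7.46 and 6.14 FPKM in med23 Δli livers (log2 fold change 0.22, 95% interval −0.39 to 0.82, limma adjusted p = 0.573). Here med23 f/f replicate 2 was the low liver, and without it the log2 fold change was −0.097. *Tgfbr2* had 5.39, 8.72 and 6.50 FPKM against 9.76, 8.44 and 8.77 FPKM. Its groups overlapped through the same control, which was the high one (log2 fold change 0.41, 95% interval −0.03 to 0.84, limma adjusted p = 0.153), and without that liver the difference passed (log2 fold change 0.59, limma adjusted p = 0.0404). The ratio of *Tgfbr2* to *Tgfbr1* was 0.740, 2.42 and 0.956 in med23 f/f livers and 1.57, 1.13 and 1.43 in med23 Δli livers.

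Primers for qRT-PCR of *Tgfb1* and *Tgfbr1* are listed with the study, and are shown to place that assay on the transcripts. Its values were not used here.
*Tgfb1* F: tgcgcttgcagagattaaaa
*Tgfb1* R: ctgccgtacaactccagtga
*Tgfbr1* F: ccgcctttaagtagttctgttcgt
*Tgfbr1* R: agccgtggggtcctttctgtgc

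The *Tgfb1* primers match coding sequence in exon 2 of 7 (chr7:25692485-25692504) and exon 3 (chr7:25694305-25694324) and span 155 bases of transcript. Both *Tgfbr1* primers match exon 9 of 9 beyond the coding part, at chr4:47411398-47411421 and chr4:47410938-47410959, and span 484 bases. The one named F matches the antisense strand. Within GENCODE M21 transcripts each primer matched its own gene only.

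Among the activin subunits, *Inhba* fell and *Inhbc* rose, while *Inhbb* and *Inhbe* did not pass the test. *Inhba*, the activin A subunit, had 14.3, 5.47 and 9.76 FPKM in med23 f/f livers and 1.54, 1.76 and 1.65 FPKM in med23 Δli livers. The controls varied widely, while the med23 Δli livers were close together and all far below the lowest control. The means of 9.84 ± 4.40 and 1.65 ± 0.109 FPKM (SD, n = 3 each) were 5.96-fold apart, and the log2 fold change was −2.40 (SE 0.31, 95% interval −3.12 to −1.69, limma adjusted p = 0.00392). With each liver left out in turn it lay between −2.77 and −2.09 and passed each time.

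*Inhbc*, the βC subunit, was the most abundant member in every liver. It had 29.7, 25.1 and 24.9 FPKM in med23 f/f livers and 59.2, 54.6 and 53.5 FPKM in med23 Δli livers. The lowest med23 Δli liver was above the highest control, and the means were 26.6 ± 2.69 and 55.8 ± 3.03 FPKM (SD, n = 3 each), 2.10-fold higher. The log2 fold change was 1.07 (SE 0.13, 95% interval 0.77 to 1.37, limma adjusted p = 0.00318), and between 1.03 and 1.15 with each liver left out.

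*Inhbe*, the neighbouring βE gene, had 17.5, 24.4 and 16.4 FPKM in med23 f/f and 17.9, 20.9 and 19.4 FPKM in med23 Δli livers. Its groups overlapped fully, with a log2 fold change of 0.02 (95% interval −0.38 to 0.42, limma adjusted p = 0.946) that turns negative under median centring and quantile normalization. *Inhbc* was 1.42 ± 0.346 times as high as *Inhbe* in med23 f/f livers and 2.89 ± 0.372 times in med23 Δli livers (SD, n = 3 each; exact permutation p = 0.1, the smallest possible). *Inhbb*, the βB subunit, had 3.59, 4.22 and 8.66 FPKM against 4.08, 3.57 and 3.25 FPKM. Replicate 3 of the controls alone was high, and the log2 fold change of −0.48 (95% interval −1.19 to 0.23, limma adjusted p = 0.287) was −0.10 without it.

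**Figure D2:**
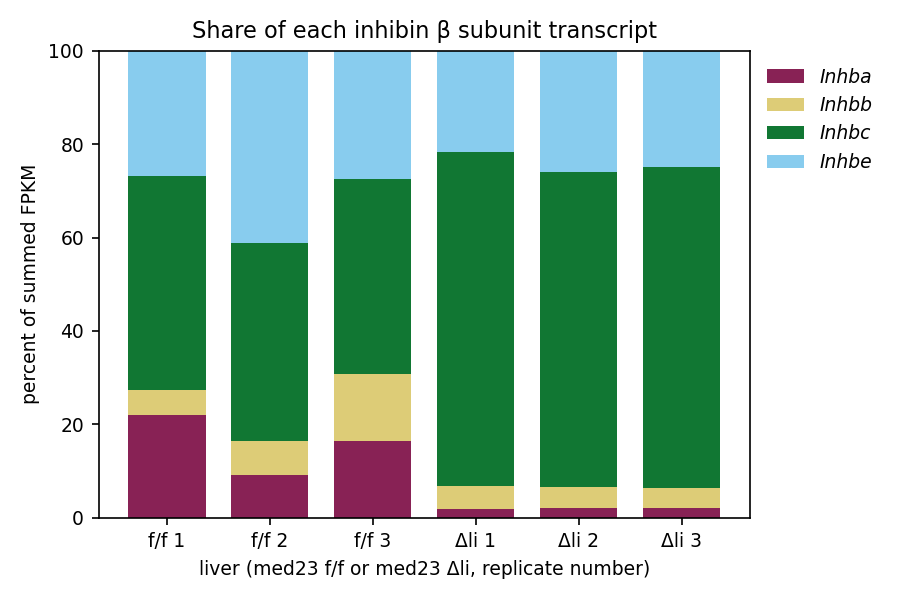
Percent of the summed FPKM of the 4 inhibin β genes stacked for each of the 6 livers, 3 med23 f/f and 3 med23 Δli. *Inhbc* makes up 41.8% to 45.7% of the β subunit sum in med23 f/f livers and 67.5% to 71.6% in med23 Δli livers.

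Together the 4 β subunits summed to 61.3 ± 3.23 FPKM in med23 f/f and 80.5 ± 2.45 FPKM in med23 Δli livers. The share of *Inhba* in this sum was 21.9%, 9.25% and 16.3% in the controls and 1.86%, 2.17% and 2.12% in the med23 Δli livers. That of *Inhbc* was 45.7%, 42.5% and 41.8% against 71.6%, 67.5% and 68.8%. The mean differences of these shares were −13.8 and 26.0 percentage points. The share of *Inhbe* was 31.8% ± 8.10 and 24.2% ± 2.25, and that of *Inhbb* 9.05% ± 4.79 and 4.51% ± 0.383 (SD, n = 3 each). The groups overlapped in none of the 4 shares (exact permutation p = 0.1 each), which are parts of the same sum. The difference in the share of *Inhbe*, −7.65 points, was −2.98 without med23 f/f replicate 2, and that of *Inhbb*, −4.54 points, was −1.81 without med23 f/f replicate 3.

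The follistatin gene *Fst* had 8.23, 3.67 and 7.00 FPKM in med23 f/f and 5.28, 7.57 and 5.75 FPKM in med23 Δli livers. The groups overlapped (log2 fold change 0.04, 95% interval −0.64 to 0.72, limma adjusted p = 0.939). The ratio of *Fst* to *Inhba* was 0.577, 0.670 and 0.717 in the 3 controls and 3.43, 4.31 and 3.48 in the med23 Δli livers (exact permutation p = 0.1). Since *Fst* did not differ, this ratio restates the fall of *Inhba*. *Fst* and *Inhba* were both lowest in replicate 2 among the controls, so their ratio varied less over the controls than either level.

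**Figure D3:**
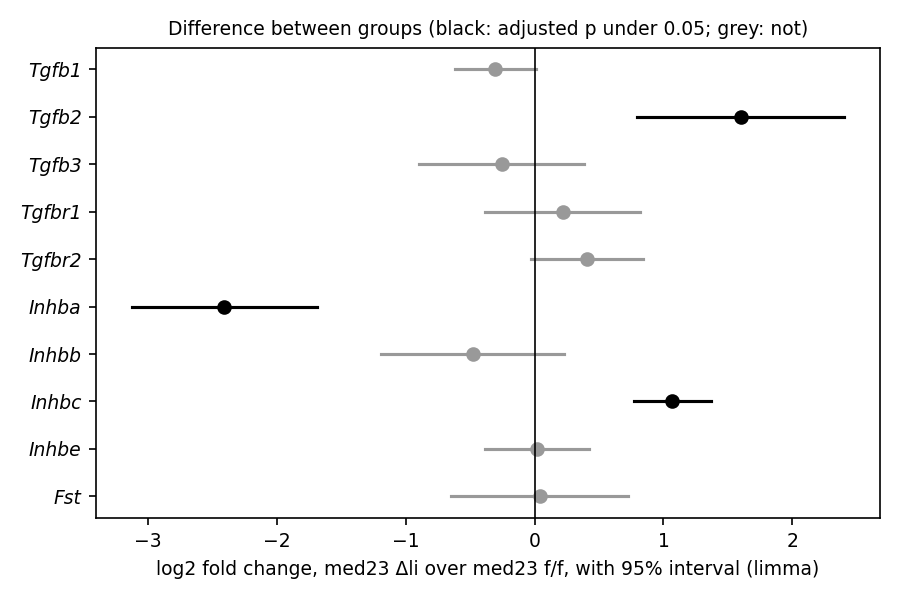
Log2 fold change of each of the 10 genes, med23 Δli over med23 f/f on the log2(FPKM + 0.1) scale, with points for limma estimates, bars for 95% intervals and black for genes that passed. *Inhba* is at −2.40, *Inhbc* at 1.07 and *Tgfb2* at 1.60, and the intervals of the other 7 genes include 0.

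In med23 f/f livers the FPKM levels ran from *Inhbc* through *Inhbe*, *Inhba*, *Tgfb1*, *Tgfbr2*, *Fst*, *Tgfbr1* and *Inhbb* to *Tgfb3* and *Tgfb2*. The ranges of neighbours overlapped from *Inhba* down to *Inhbb*, and those of *Tgfb3* and *Tgfb2* overlapped too. In med23 Δli livers the order was *Inhbc*, *Inhbe*, *Tgfbr2*, *Tgfbr1*, *Tgfb1*, *Fst*, *Inhbb*, *Tgfb2*, *Inhba* and *Tgfb3*, where *Tgfbr1*, *Tgfb1* and *Fst* overlapped. *Inhba* was thus at rank 3 of the members in one group and at rank 9 in the other.

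For each gene that passed, the genes with the most similar pattern over the 6 livers were sought among the 11955 others tested, by the root mean square distance of mean-centred log2 values. For *Inhbc* these were *Bckdha* (distance 0.058), *Kantr* (0.060) and *Hspe1* (0.061). The nearest to *Tgfb2* were *Kitl* (0.080), *Elmo1* (0.115) and *Glis3* (0.143). *Inhba* had no neighbour as close, and its nearest were *Rps6kl1* (0.373), *Tuba8* (0.415) and *Nid1* (0.426). The distance is not scaled to the size or spread of a gene's values, both large in *Inhba*, so distances of different members are not comparable.

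Of the 76 other genes of the pathway reported here, 61 were tested, and 4 rose and 12 fell, with a median log2 fold change of −0.16. Over all genes tested, 11.6% rose and 9.48% fell, and the counts of each list below stand against these shares. Among the superfamily ligands outside the members, 2 of 8 tested rose and 2 fell. *Bmp6*, a ligand known for its control of hepcidin, had 1.16, 2.05 and 2.53 FPKM in med23 f/f and 13.8, 10.5 and 13.6 FPKM in med23 Δli livers. It was higher in every med23 Δli liver and rose 6.60-fold (log2 fold change 2.72, SE 0.27, limma adjusted p = 0.00173). *Gdf15*, a stress-induced ligand, rose from 21.9 ± 2.28 to 44.6 ± 11.5 FPKM, whereas *Gdf2* (BMP9) fell from 6.18 ± 1.05 to 2.88 ± 0.237 FPKM and *Gdf10* from 8.02 ± 0.200 to 3.20 ± 0.269 FPKM (SD, n = 3 each).

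**Figure D4:**
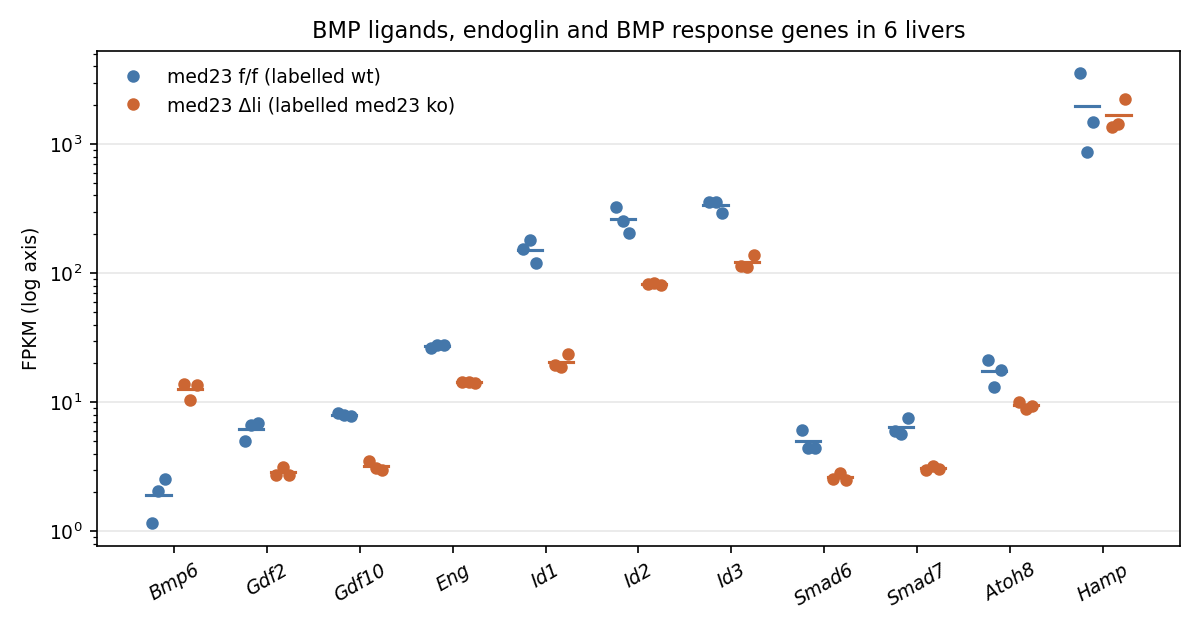
FPKM (log axis) of BMP ligands, *Eng* and BMP response genes in each of the 6 livers, by group, with points for livers and lines for group means. *Bmp6* is higher and *Id1* lower in every med23 Δli liver.

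Of 8 BMP response genes, all tested, 6 fell and none rose, with a median log2 fold change of −0.95. *Id1*, *Id2* and *Id3* encode inhibitors of DNA binding by basic helix-loop-helix factors and are transcriptional targets of the BMP-activated SMADs. *Id1* had 155, 180 and 121 FPKM in med23 f/f and 19.5, 18.8 and 23.6 FPKM in med23 Δli livers, a log2 fold change of −2.86 (SE 0.18, limma adjusted p = 0.000322). *Id2* fell 3.16-fold and *Id3* 2.76-fold, and *Smad7*, *Smad6* and *Atoh8* fell by 1.02, 0.89 and 0.85 on the log2 scale. The count of 6 was 4 without med23 Δli replicate 1, 5 without replicate 2 and 4 without replicate 3, where *Atoh8* did not pass (limma adjusted p = 0.0622, 0.0733 and 0.0680). *Hamp*, which encodes hepcidin, varied widely (1969 ± 1399 and 1671 ± 478 FPKM) and did not pass, nor did *Id4*.

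The SMAD genes and their regulators, 14 of 14 tested, gave 2 that rose and 2 that fell. *Tgif1*, a repressor of SMAD-driven transcription, rose from 11.7 ± 1.84 to 25.0 ± 4.39 FPKM, and *Smad4*, the shared partner SMAD, from 10.9 ± 1.41 to 15.1 ± 0.281 FPKM. *Smad6* and *Smad7*, the inhibitory SMADs, were the ones that fell and are also counted among the BMP response genes. *Ppm1a*, a SMAD phosphatase and the most abundant gene of the list, had 34.0 ± 2.45 and 43.1 ± 2.47 FPKM and did not pass (limma adjusted p = 0.0821). The rise of *Smad4* had a limma adjusted p of 0.0447 and lost the call in 8 of 15 alternatives. Of the TGF-β response genes, 15 of 16 were tested and 1 fell, *Snai1*, a repressor of epithelial genes, from 2.21 ± 0.143 to 1.11 ± 0.227 FPKM, and none rose. *Smad6* and *Snai1* did not pass without med23 Δli replicate 1 or without replicate 3. The median of the TGF-β response list was −0.25, and its most abundant genes *Fn1* and *Tgm2* differed by 0.07 and 0.10 on the log2 scale without passing.

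Among the activin and BMP receptors, 1 of 9 tested passed. *Eng*, the endothelial co-receptor for BMP9 and TGF-β, fell from 26.5, 27.6 and 27.7 FPKM to 14.4, 14.4 and 14.2 FPKM (log2 fold change −0.92, SE 0.11, limma adjusted p = 0.00346). *Bmpr1a*, a type I BMP receptor and next in level, had 5.94 ± 2.25 and 8.65 ± 1.53 FPKM (limma adjusted p = 0.185). Among the extracellular binders and latency proteins, 2 of 9 tested fell: *Lrrc32*, which displays latent TGF-β on the cell surface, and *Ltbp4*, which anchors it in the matrix (log2 fold changes −0.70 and −0.69). The most abundant of the list, the matrix proteoglycan gene *Dcn* (71.8 ± 9.40 and 57.9 ± 7.84 FPKM) and the integrin gene *Itgav* (6.66 ± 1.06 and 9.21 ± 0.413 FPKM), did not pass (limma adjusted p = 0.184 and 0.0623). With any liver left out, at most 1 gene of this list fell, and none did with no filter.

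**Figure D5:**
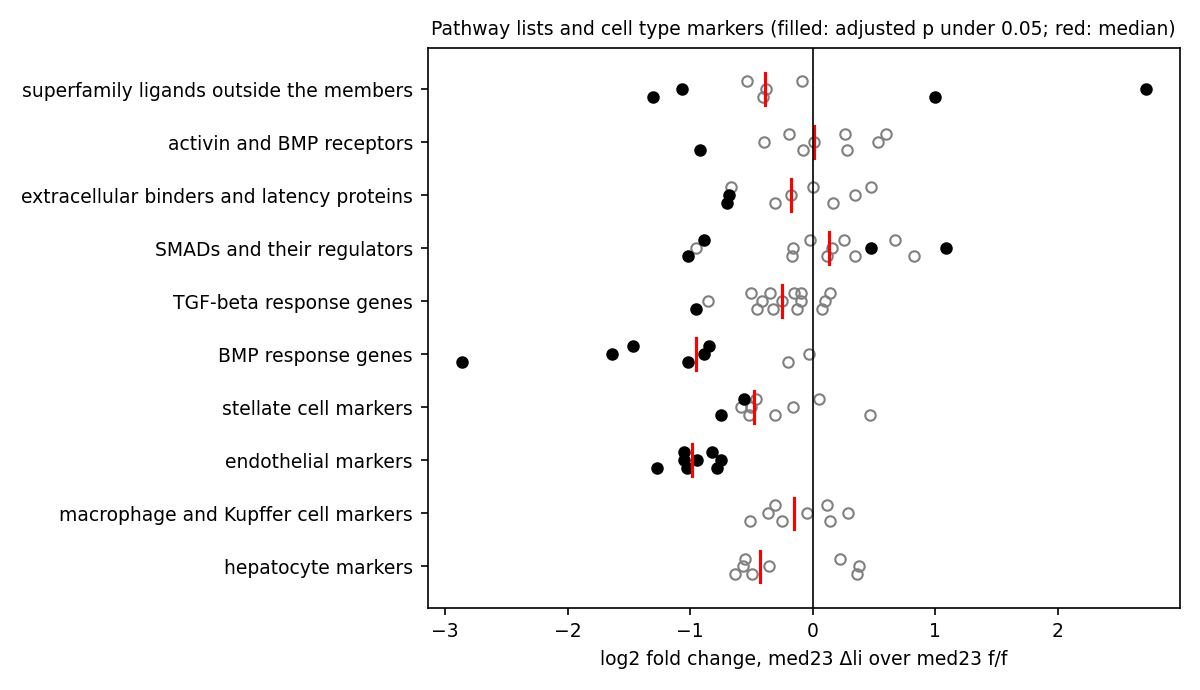
Log2 fold change of every tested gene of the 6 pathway lists and of 4 marker lists, med23 Δli over med23 f/f. Points are genes, filled where they passed, and red lines are list medians, −0.95 for the BMP response genes and −0.98 for the endothelial markers.

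Markers of the other liver cells were read beside these genes, since in whole tissue fewer cells of a type and less RNA per cell cannot be told apart. All 8 endothelial markers fell, among them *Pecam1*, *Stab2* and *Clec4g*, with a median log2 fold change of −0.98 and a summed level of 91.9 to 130 FPKM in med23 f/f and 49.7 to 53.2 FPKM in med23 Δli livers. This count was 5 without med23 Δli replicate 1 and without replicate 3. Of 10 stellate cell markers, 2 fell, *Colec11* and *Des*, and the sum was 35.8 to 43.5 against 26.6 to 33.1 FPKM. None of 8 macrophage and Kupffer cell markers passed (273 to 329 against 305 to 318 FPKM), nor any of 8 hepatocyte markers, with *Alb* between 12624 and 22376 FPKM. None of the tested neutrophil, biliary, adipocyte, smooth muscle and mesothelial markers passed, and lymphocyte markers were all under the filter. Of 3 erythroid markers tested 1 rose, *Hba-a1*, with 0.00028, 0 and 0.0031 against 18.0, 4.77 and 0.139 FPKM. *Hbb-bs* varied widely in both groups (43.8, 122 and 0.0057 against 0.0064, 5.94 and 12.1 FPKM) and did not pass. The erythroid list summed to 10.9 to 144 FPKM in med23 f/f and 25.8 to 28.8 FPKM in med23 Δli livers. The endothelial sum was lower in the same livers as *Inhba*, *Eng*, *Gdf2*, *Gdf10*, *Id1*, *Id2* and *Id3* and in those with more *Bmp6*, *Tgfb2* and *Inhbc*, and the part of cell numbers in these differences was not tested.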

How the data were processed

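Whole-liver RNA was sequenced in 6 libraries, 3 per group as labelled; nothing pairs them, and p-values measure the spread between these livers. The authors aligned reads to mm10 with TopHat and ran Cuffdiff; versions, annotation and strand setting are not given in the sources used here. The deposited table holds FPKM per library, used as given. It also holds group means and the authors' own fold changes, p-values and q-values, which were not used. Low values gave no shared step between libraries, so no reads were recovered and the depth of each library is unknown.

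Genes whose mean reached 0.5 FPKM were compared on log2(FPKM + 0.1) with limma 3.58.1 in R 4.3.3 (lmFit, eBayes with a trend, Benjamini-Hochberg adjustment), tested on simulated data first. Shares and ratios had exact two-sided permutation tests. Other settings were a replicate block, each library left out, median centring, quantile normalization, robust eBayes, no trend, a pseudocount of 1 or 0.01, and a filter of 1 FPKM or none. Named were all members, *Med23*, up to 6 passing genes and the 2 most abundant of each pathway list, up to 3 genes of each marker list, and the 3 genes nearest in pattern to each member that passed. *Id4* was named after its values were seen. One gene of the pathway lists is not reported here and is left out of their counts. The members and lists were chosen with earlier results of these data known. Positions come from GENCODE M21 and promoters from RefSeq GRCm38.p6. Python 3.11.15, numpy 2.4.6, pandas 2.3.3 and matplotlib 3.10.9 were used for the rest.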

Additional observations from a re-analysis of the deposited data

How the results depend on the processing

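The fall of *Inhba* and the rise of *Inhbc* passed under every alternative run, and the count of members that fell was 1 in each. The count of members that rose was 1 to 3 with each library left out and 2 under the others, since *Tgfb2* lost its call without any med23 Δli library and *Tgfbr2* gained one without med23 f/f replicate 2. With a pseudocount of 1 the log2 fold change of *Tgfb2* was 0.92. Among the members without a call, only *Tgfbr1*, *Inhbe* and *Fst* changed sign, with log2 fold changes as follows. *Tgfbr1* was −0.097 without med23 f/f replicate 2 and up to 0.40 with another library left out. *Inhbe* was −0.0086 with median centring, −0.0053 with quantile normalization, −0.035 without med23 Δli replicate 2, −0.043 without med23 f/f replicate 1 and −0.091 without med23 f/f replicate 3, and up to 0.20 with another left out. *Fst* was −0.0048 with quantile normalization, −0.11 without med23 Δli replicate 2 and −0.30 without med23 f/f replicate 2, and up to 0.27 with another left out. In the pathway lists, the binders that fell numbered 0 with no filter and 0 with the replicate block, and 0 to 1 with a library left out, and those that rose 0 to 1. The receptors that rose were 0 to 1 with a library left out. The SMAD genes that rose were 1 with no filter, 1 with no trend, 1 with the replicate block and 1 to 3 with a library left out, and those that fell 1 to 2. The TGF-β response genes that fell were 0 with the replicate block and 0 to 1 with a library left out. The BMP response genes that fell were 4 to 6 with a library left out. Endothelial markers that fell were 5 to 8 with a library left out; this count was added after seeing the data. The causes were not tested. Same-numbered libraries did not deviate together (r = −0.022, −0.046 and −0.124), so the numbers were not taken as pairs; the replicate block left 2 members higher and 1 lower and called 809 genes higher and 614 lower, against 1384 and 1133. Without a filter 1048 rose and 857 fell. Quantile normalization gave 1301 and 1351. Without med23 Δli replicate 1, 401 rose and 349 fell, fewer than with any other library left out. The depth of each library is unknown, so the limit it sets cannot be given.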

Other observations

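Of the 76 pathway genes, 15 were under the filter of 0.5 FPKM and have no test. *Nodal*, a ligand of embryonic patterning, was among them, named after its values were seen, with 0.242, 0.919 and 0.126 FPKM in med23 f/f livers and 0, 0.039 and 0.057 FPKM in med23 Δli livers, so that every control was above every med23 Δli liver at low levels. *Adipoq*, an adipocyte marker, reached 5.65 FPKM in replicate 2 of the med23 Δli livers and was 0 in every control. *Plin1* had 2.76 FPKM in that liver and 0 in all the others. The adipocyte marker list summed to between 23.3 and 216 FPKM in med23 Δli livers against 53.4 to 66.9 FPKM in controls. Most of the control sum was *Fabp4*, with 53.2, 66.3 and 64.7 FPKM, against 23.2, 177 and 32.0 FPKM in med23 Δli livers. Without med23 Δli replicate 2, *Inhba* and *Inhbc* still passed (limma), and the adjusted p of *Tgfb2* was 0.0556.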
